A study of Mus musculus with 9 samples.

Results

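Adipose progenitor and stromal marker genes were compared between male C57BL/6J mice on a high fat and on a low fat diet, in periprostatic fat, a visceral fat pad next to the prostate. The set was fixed by name and holds 10 genes, Pdgfra, Pdgfrb, Cd34, Ly6a, Cd248, Dpp4, Pi16, F3, Clec11a and Fmo2. A gene entered when a probe set of the array carried its symbol and no other, which left 9 members of 22180 measured genes, each with 1 such probe set. Ly6a had no row under this rule and was not analysed here. In the high fat group, 5 mice received 60% of their energy as fat, and in the low fat group 4 mice received 10%, in both cases from 6 weeks of age for 12 weeks, with tissue taken at 18 weeks. All mice shared strain and sex, none carried an engineered allele per the labels, and each mouse gave 1 Affymetrix Mouse Gene 2.0 ST array of total RNA from whole frozen tissue. The question was whether genes of early progenitors, of committed preadipocytes and of regulatory stromal cells differ between the diets after the feeding period.

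White fat contains, beside its adipocytes, a stroma of fibroblast-like cells, vessels and immune cells. Part of that stroma is progenitor cells, which carry the platelet-derived growth factor (PDGF) receptor alpha. An early, interstitial population marked by Dpp4 and Pi16 can give rise to committed preadipocytes marked by Icam1, and a further population marked by F3, also known as CD142, has been described as restraining adipocyte formation. Both PDGF receptors are tyrosine kinases that bind PDGF dimers and drive proliferation and migration of mesenchymal cells. Cd34 encodes a sialomucin also present on endothelial cells, Cd248 encodes endosialin of fibroblasts and pericytes, and Pdgfrb also marks pericytes. Clec11a encodes a secreted growth factor and Fmo2 a monooxygenase of the endoplasmic reticulum, so neither encodes a surface receptor despite the name of the set.

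The sequence before the annotated transcription start is shown for the 3 genes that rose and have an entry in the promoter table, Pdgfra, Cd34 and Clec11a, and for F3, the gene with a lower mean in high fat mice. Each line gives the 250 bases upstream of a RefSeq start in GRCm38.p6, 5′ to 3′ in the direction of the gene, with capitals for any match of the searched motifs on either strand.
Pdgfra, chr5:75152001-75152250, + strand: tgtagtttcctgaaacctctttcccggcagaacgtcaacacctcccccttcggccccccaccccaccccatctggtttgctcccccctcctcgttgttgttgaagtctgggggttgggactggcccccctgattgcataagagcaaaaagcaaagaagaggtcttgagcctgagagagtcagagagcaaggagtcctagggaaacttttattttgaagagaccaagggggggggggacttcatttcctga
Cd34, chr1:194938571-194938820, + strand: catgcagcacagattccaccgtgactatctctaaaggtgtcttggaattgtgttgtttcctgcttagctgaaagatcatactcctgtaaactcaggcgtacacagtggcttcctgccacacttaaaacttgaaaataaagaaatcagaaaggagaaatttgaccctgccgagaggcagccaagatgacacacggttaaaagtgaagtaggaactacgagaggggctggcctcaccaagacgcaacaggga
Clec11a, chr7:44306960-44307209, - strand: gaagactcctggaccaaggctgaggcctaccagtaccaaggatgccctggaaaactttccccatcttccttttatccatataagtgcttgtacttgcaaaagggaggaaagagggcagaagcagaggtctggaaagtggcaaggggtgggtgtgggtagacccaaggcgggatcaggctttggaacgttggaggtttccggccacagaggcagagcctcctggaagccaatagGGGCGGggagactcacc
F3, chr3:121723287-121723536, + strand: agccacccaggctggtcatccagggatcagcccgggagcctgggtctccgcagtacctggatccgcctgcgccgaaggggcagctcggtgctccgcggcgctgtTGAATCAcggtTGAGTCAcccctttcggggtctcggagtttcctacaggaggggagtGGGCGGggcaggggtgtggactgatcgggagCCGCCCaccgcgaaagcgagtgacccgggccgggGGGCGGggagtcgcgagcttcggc

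The motifs searched on both strands were TATAAA (the TATA box), GGGCGG (the GC box), TGANTCA (the letters of an AP-1 site, with N for any base), TGACGTCA (the cyclic AMP response element), CACGTG (an E-box) and GGAATG (the core of a TEAD site). The F3 window held 3 copies of GGGCGG and 2 of TGANTCA, none of which overlap. The Clec11a window held 1 copy of GGGCGG. The windows of Pdgfra and Cd34 held none of the 6 motifs. Of all 32851 windows of this length in the table, 32.7% held GGGCGG, 6.75% TGANTCA, 12.4% TATAAA, 12.6% GGAATG, 6.02% CACGTG and 1.55% TGACGTCA. Guanine and cytosine made up 70.0% of the F3 window, 55.6% of that of Clec11a, 54.4% of that of Pdgfra and 46.4% of that of Cd34, against a median of 52.4% over all windows. These matches describe letters, and no binding was measured.

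Values are log2 expression per probe set, so a difference of 1 is a doubling, and they allow a gene to be compared between mice but not with another gene. Arrays of high fat mice 1 and 2 had slightly wider distributions than the other arrays. The mean of 7 skeletal muscle markers reached 8.69 in high fat mouse 1, whereas the rest of its group lay between 6.54 and 6.66. Among low fat mice that mean was highest in mouse 4, at 7.66, with the others between 6.59 and 6.79. The mean of 7 smooth muscle markers reached 10.66 in low fat mouse 2, whereas the rest of its group lay between 8.36 and 8.40. The tissue carried the adipocyte markers Plin1 and Adipoq at means of 12.38 and 11.16 in high fat mice and 12.86 and 11.52 in low fat mice. Of 7 measured prostate and seminal vesicle markers 0 passed limma for diet, with 0 at an unadjusted p under 0.05. Group means of Svs2 and Svs4 lay between 4.90 and 5.34, and those of the epithelial keratin Krt18 were 7.19 in high fat and 7.08 in low fat mice.

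Of the 9 measured members, 4 rose in high fat diet, Pdgfra, Pdgfrb, Cd34 and Clec11a, and none fell by the limma test. Over all genes tested, 21.5% passed that test at an adjusted p of 0.05, 12.4% as higher and 9.13% as lower. Arrays of the diets did not overlap for the same 4 genes, against 20.7% of all genes. Means were higher in high fat mice for 8 members and lower for F3, against 49.6% of all genes with a difference above 0. Among the 5 members that did not pass, 4 had an unadjusted p under 0.05, namely Cd248, Dpp4, Pi16 and F3. The share of all genes under that unadjusted p was not counted, so these 4 are not read as a trait of the set. The median difference over the measured members was 0.42 on the log2 scale, against -0.0011 over all genes. Members were chosen with earlier results of these data known, so the comparison with all genes is a description and not a test. With the dimmest 25% of genes left out, 5 members and 4805 of 16635 genes passed. In bulk tissue a change in the number of cells of a type and a change in RNA per cell cannot be told apart.

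**Figure D1:**
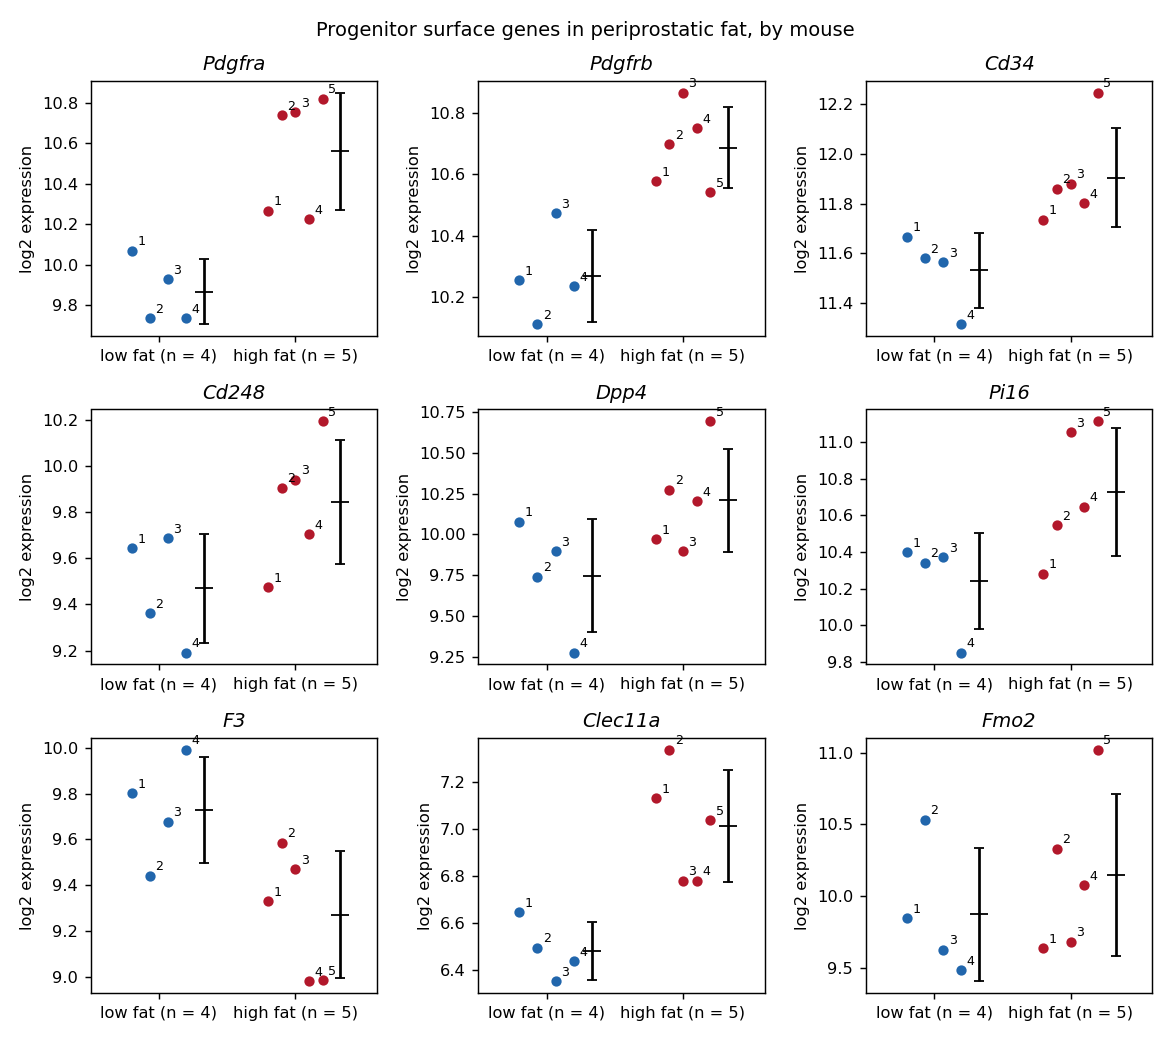
Log2 expression of each measured gene (y axis) by diet (x axis), with 1 point per mouse labelled by its mouse number, and a cross and bar for the mean and SD of 4 low fat or 5 high fat mice; each panel has its own y scale. Pdgfra, Pdgfrb, Cd34 and Clec11a show no overlap between the diets, and the other 5 genes do.

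Pdgfra, which encodes the receptor common to the progenitor populations (probe set 17438246), had log2 values of 10.27, 10.74, 10.75, 10.23 and 10.82 in high fat mice 1 to 5 and of 10.07, 9.73, 9.93 and 9.74 in low fat mice 1 to 4. Every high fat mouse lay above every low fat mouse, and the high fat group was split, with mice 1 and 4 nearest to the low fat range. The level was 1.62-fold higher in high fat diet, with a difference of 0.70 ± 0.14 (SE) and a limma adjusted p of 0.00614.

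Pdgfrb, the second PDGF receptor gene (probe set 17351027), was at 10.58, 10.70, 10.87, 10.75 and 10.54 in high fat mice 1 to 5. In low fat mice 1 to 4 it was at 10.25, 10.11, 10.47 and 10.23. The groups did not overlap, although low fat mouse 3 came within 0.07 of the lowest high fat mouse. Pdgfrb was 1.34-fold higher, with a difference of 0.42 ± 0.09 (SE) and a limma adjusted p of 0.00622. The order of mice differed from that of Pdgfra, since high fat mouse 5 was the highest for Pdgfra and the lowest of its group for Pdgfrb.

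Cd34 (probe set 17221014) was at 11.74, 11.86, 11.88, 11.80 and 12.25 in high fat mice 1 to 5, and at 11.67, 11.58, 11.56 and 11.32 in low fat mice 1 to 4. The groups were 0.07 apart at their nearest points, high fat mouse 5 stood above the rest and low fat mouse 4 below. Cd34 was 1.29-fold higher, with a difference of 0.37 ± 0.11 (SE) and a limma adjusted p of 0.0317. This call was the least stable of the 4: it was lost without high fat mouse 2 (difference 0.38) or 3 (0.38), without low fat mouse 2 (0.39), 3 (0.38) or 4 (0.30), and with quantile normalization repeated (0.34, limma adjusted p = 0.0594). Cd34 is also a gene of blood vessels. Among endothelial markers Vwf rose by 0.39, Kdr fell by 0.26 and Robo4 fell by 0.25. Both calls were lost without high fat mouse 2, 3 or 5 or without low fat mouse 2, 3 or 4, that of Robo4 also without high fat mouse 1 and that of Kdr without high fat mouse 4. With any 1 mouse left out the difference stayed between -0.30 and -0.20 for Kdr and between -0.30 and -0.18 for Robo4. In all mice the other 7 of 10, Pecam1 and Cdh5 included, did not pass. Of the 10 endothelial markers 1, Vwf, had a higher mean in high fat mice. Tek (-0.12) was called lower with quantile normalization repeated and with arrays centred on their medians, and Emcn (-0.22) without low fat mouse 1. The mean of the endothelial list lay between 9.74 and 9.93 in high fat mice and between 9.85 and 10.01 in low fat mice.

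Cd248 (probe set 17356369) was at 9.47, 9.91, 9.94, 9.70 and 10.20 in high fat mice 1 to 5 and at 9.64, 9.36, 9.69 and 9.19 in low fat mice 1 to 4. The groups overlapped, with high fat mouse 1 inside the low fat range. The difference of 0.37 ± 0.15 (SE) did not pass (limma adjusted p = 0.108), and it passed without high fat mouse 1 (0.47, limma adjusted p = 0.0397). The mural cell list, to which pericytes belong, had 1 of 7 members called, Abcc9, which fell by 0.24. The Abcc9 call was lost without low fat mouse 2 (-0.21) or 3 (-0.20), and without low fat mouse 2 Cspg4 of that list was called higher (0.28, limma adjusted p = 0.044). Kcnj8 had a difference of -0.25 with a limma adjusted p of 0.103.

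**Figure D2:**
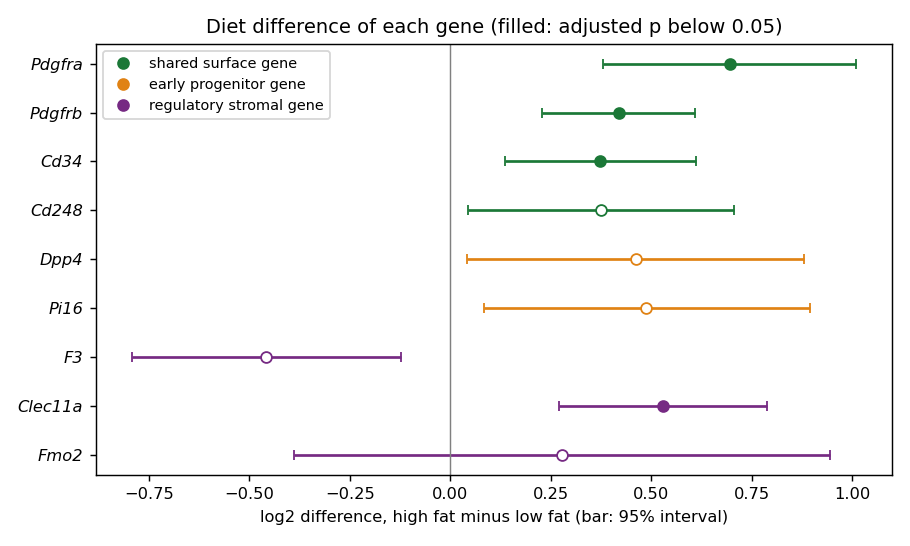
Difference in log2 expression, high fat minus low fat (x axis), for each measured gene (y axis), with the 95% interval of the limma fit as bars; filled points passed an adjusted p of 0.05 and colours give the role. Intervals of Pdgfra, Pdgfrb, Cd34 and Clec11a lie above 0. Those of Cd248, Dpp4 and Pi16 also lie above 0, with lower ends close to it. The interval of F3 lies below 0, and that of Fmo2 crosses it.

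The early progenitor genes Dpp4 and Pi16 had higher means in high fat mice, and neither passed the test. Dpp4, a dipeptidyl peptidase that inactivates incretins and chemokines (probe set 17385719), was at 9.97, 10.27, 9.90, 10.20 and 10.69 in high fat mice 1 to 5. In low fat mice 1 to 4, Dpp4 was at 10.08, 9.74, 9.90 and 9.27. High fat mouse 5 and low fat mouse 4 formed the ends, and the other mice of both groups lay between 9.74 and 10.27. The difference was 0.46 ± 0.19 (SE), with a 95% interval of 0.04 to 0.88 and a limma adjusted p of 0.116. Without low fat mouse 4 the Dpp4 difference was 0.30 (limma adjusted p = 0.27). Without high fat mouse 5 and low fat mouse 4, an alternative chosen after the values were seen, the Dpp4 difference was 0.18 (limma adjusted p = 0.341).

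Pi16, a peptidase inhibitor of fibroblasts (probe set 17335506), was at 10.28, 10.55, 11.05, 10.65 and 11.12 in high fat mice 1 to 5 and at 10.40, 10.34, 10.37 and 9.85 in low fat mice 1 to 4. High fat mouse 1 lay inside the low fat range and low fat mouse 4 stood below the others. The difference was 0.49 ± 0.18 (SE), with a limma adjusted p of 0.0878. Pi16 passed without high fat mouse 1 (0.60, limma adjusted p = 0.034), and its difference was 0.26 (limma adjusted p = 0.32) without high fat mouse 5 and low fat mouse 4.

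Of the 3 regulatory stromal genes, Clec11a passed and F3 and Fmo2 did not. F3, tissue factor, the cell surface starter of coagulation (probe set 17402181), was at 9.33, 9.59, 9.47, 8.98 and 8.98 in high fat mice 1 to 5 and at 9.80, 9.44, 9.68 and 9.99 in low fat mice 1 to 4. High fat mice 4 and 5 were the lowest, and high fat mice 2 and 3 overlapped with low fat mouse 2. The difference was -0.46 ± 0.15 (SE), with a 95% interval of -0.79 to -0.12 and a limma adjusted p of 0.0551. F3 passed with quantile normalization repeated (-0.49, limma adjusted p = 0.033), with arrays centred on their medians (-0.50, limma adjusted p = 0.0324) without high fat mouse 2 (-0.54, limma adjusted p = 0.0342) and without low fat mouse 2 (-0.55, limma adjusted p = 0.0347).

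Clec11a (probe set 17490211) was at 7.13, 7.34, 6.78, 6.78 and 7.04 in high fat mice 1 to 5 and at 6.65, 6.50, 6.35 and 6.44 in low fat mice 1 to 4. The groups did not overlap, and high fat mice 3 and 4 were closest to the low fat range. Clec11a was 1.44-fold higher, with a difference of 0.53 ± 0.12 (SE) and a limma adjusted p of 0.00918. Its mean over all arrays lay at the 47.3th percentile of genes, whereas the other 8 members lay at the 86.1th or above, and whether Clec11a was above background could not be determined. The call was lost without high fat mouse 1 and low fat mouse 2 together (0.50, limma adjusted p = 0.052).

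Fmo2 (probe set 17229036) was at 9.63, 10.33, 9.68, 10.08 and 11.02 in high fat mice 1 to 5 and at 9.85, 10.53, 9.62 and 9.48 in low fat mice 1 to 4. It had the widest spread of the 9 genes, 1.39 in high fat and 1.05 in low fat mice. The groups overlapped between 9.63 and 10.53, and high fat mouse 5 lay above every low fat mouse. The difference was 0.28 ± 0.30 (SE), with a 95% interval of -0.39 to 0.95 and a limma adjusted p of 0.576. The difference was 0.06 without high fat mouse 5, 0.15 without low fat mouse 4, 0.50 without low fat mouse 2 and -0.07 without high fat mouse 5 and low fat mouse 4 together.

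To ask whether members differed in their response, each gene was taken relative to Pdgfra on the same array and the diets were compared by a two-sided exact permutation test over the 126 assignments of mice to groups of 5 and 4, adjusted over 8 comparisons. Pdgfra itself had the largest difference of the members (0.70) and F3 the only negative one (-0.46). With Pdgfra as the reference, all 8 relative differences were therefore below 0, and that of F3 had to be the furthest. F3 relative to Pdgfra changed by -1.15 ± 0.20 (SE), from between -0.29 and 0.26 in low fat mice to between -1.84 and -0.94 in high fat mice, with no overlap (exact permutation p = 0.0159, adjusted p = 0.0635). Cd34 relative to Pdgfra changed by -0.32 ± 0.11 (SE), also without overlap (exact permutation p = 0.0159, adjusted p = 0.0635). The value 0.0159 is the smallest these assignments allow, and at least 3 of the 8 genes would have to reach it for an adjusted p under 0.05. Cd248 followed at -0.32 ± 0.09 (SE, exact permutation p = 0.0317, adjusted p = 0.0847). For Pdgfrb (-0.28 ± 0.16), Dpp4 (-0.23 ± 0.19), Pi16 (-0.21 ± 0.15), Clec11a (-0.17 ± 0.17) and Fmo2 (-0.42 ± 0.34, each ± SE) the exact permutation adjusted p ran from 0.286 to 0.381. No member therefore passed as different from Pdgfra after adjustment.

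**Figure D3:**
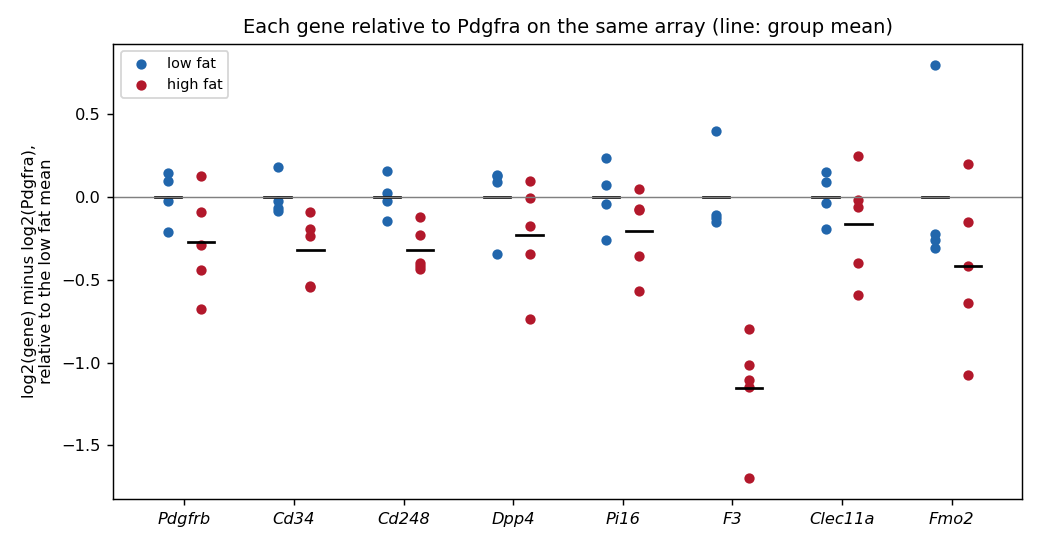
Each gene's log2 value minus that of Pdgfra on the same array, set so that the low fat mean is 0 (y axis), for 8 genes (x axis), with 1 point per mouse and a line at the group mean. F3 is lower in all 5 high fat mice than in all 4 low fat mice, by a mean of 1.15, and Cd34 is separated by a narrow gap.

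All 4 PDGF ligand genes passed the limma test, 3 as higher and 1 as lower. Pdgfa, a ligand of the alpha receptor, was at 8.45, 8.35, 8.50, 8.44 and 8.32 in high fat mice 1 to 5 and between 7.75 and 8.09 in the 4 low fat mice, without overlap, a 1.37-fold increase (difference 0.45 ± 0.07 (SE), limma adjusted p = 0.00146). Pdgfb, the ligand of both receptors that recruits pericytes, was at 9.53, 9.53, 9.67, 9.39 and 9.15 against 8.91, 9.11, 9.13 and 9.07, a 1.32-fold increase (limma adjusted p = 0.015). Pdgfd, a ligand of the beta receptor, was 1.18-fold higher with groups that overlapped at low fat mouse 1 (limma adjusted p = 0.0324). Its call was lost without high fat mouse 1, 2 or 5 or low fat mouse 2, 3 or 4, with differences of 0.20 or more against 0.24 in all mice. Pdgfc, a further ligand of the alpha receptor, was 1.17-fold lower, between 9.42 and 9.56 in high fat and between 9.65 and 9.77 in low fat mice (limma adjusted p = 0.00464). Without high fat mouse 1 and low fat mouse 2, or without high fat mice 1 and 2, 1 of the ligands was called higher. Among 10 adaptors and effectors of the receptors, Grb2 (0.36) and Crk (0.16) rose and Pik3r1, the regulatory subunit of phosphoinositide 3-kinase, fell by 0.51, while Gab1 was at 0.11 with a limma adjusted p of 0.215. Only 1 adaptor gene was called higher with quantile normalization repeated, with arrays centred on their medians, without high fat mouse 2 or 3, without low fat mouse 2 or 3, and without high fat mouse 1 and low fat mouse 2 together. Without high fat mice 1 and 2 neither Grb2 (0.31) nor Crk (0.17) passed.

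Other genes of the early interstitial population rose in 4 of 12 measured cases, with none lower and a median difference of 0.19. Pcolce2, which enhances procollagen processing, rose by 0.91, Sema3c, a semaphorin, by 0.58, and Limch1 and Uchl1 by 0.37 and 0.33. Limma adjusted p was 0.000762 for Pcolce2, 0.000736 for Sema3c, 0.0364 for Limch1 and 0.0377 for Uchl1. Limch1 and Uchl1 both lost their calls with quantile normalization repeated and with arrays centred on their medians. They also lost them without any 1 of high fat mice 1 to 5 or of low fat mice 2 and 4. The early progenitor count was 2 in each of these fits. Without low fat mouse 1 both lost their calls too, while Anxa3 was called higher (0.56, limma adjusted p = 0.0181). Bmp7 (0.0006) and Efhd1 (0.06) of that list had differences near 0.

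Committed preadipocyte genes passed in both directions, 6 of 13 as higher and 2 as lower, with a median of -0.003. The count as higher was 5 with quantile normalization repeated and with arrays centred on their medians, where Sparcl1 (0.16 in all mice) lost its call. Sparcl1 also lost it without any 1 of high fat mice 1 to 4 or of low fat mice 1, 3 and 4. Without high fat mice 1 and 2, Col15a1 lost its call as well. The increases included the basement membrane collagens Col4a2 (1.69-fold) and Col4a1 (1.45-fold), Ggt5, a gamma-glutamyltransferase (1.40-fold), and Icam1, the adhesion molecule that marks the committed population (1.53-fold), with limma adjusted p from 4.26e-05 to 0.000801. Which cells of the whole tissue carried these increases was not tested. The members that fell were Aoc3, an amine oxidase, and Pparg, which adipocytes also express, at -0.36 and -0.34. Fabp4, Cd36 and Lpl, likewise shared with adipocytes, had differences of -0.10, -0.003 and -0.07 that did not pass. Lpl was called lower when the mean of its probe sets was used (-0.42, limma adjusted p = 0.00977). Fabp4 was called lower with arrays centred on their medians (-0.15, limma adjusted p = 0.0285). In the list of other regulatory stromal genes 3 of 7 rose, Mgp (2.34-fold), Abcg1 (1.92-fold) and Adam12 (1.88-fold), with a median of 0.49, and Aldh1a2 was at 0.49 (limma adjusted p = 0.0628). Abcg1 is also a cholesterol exporter of macrophages, and macrophage markers rose in 7 of 8 cases, led by Cd68 (3.66-fold) and C1qb (1.89-fold). The mean of the macrophage list lay between 10.56 and 11.08 in high fat mice and between 9.80 and 10.07 in low fat mice, and its part in the Abcg1 difference was not tested.

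Fibroblast genes rose in 7 of 10 measured cases and 1 fell, Gsn (-0.22), with a median difference of 0.82. Gsn lost its call without high fat mice 1 and 2. Of the 7 that rose, Fbln1 (0.79, with overlapping groups) lost its call without high fat mouse 2, 3 or 5 or low fat mouse 3 or 4. Fbln1 also lost it with all rows tested, with a block for mouse number, and without high fat mice 1 and 2. Lum, the collagen-binding proteoglycan lumican, was 4.47-fold higher, Fstl1 1.86-fold, and the collagen genes Col1a2 and Col1a1 1.77-fold and 2.38-fold, with limma adjusted p from 6.44e-05 to 0.000337. Adipocyte markers fell in 6 of 7 cases, led by Slc2a4 (2.30-fold lower) and Plin1 (1.39-fold lower), and Lep rose. The mean of the adipocyte list lay between 11.90 and 12.16 in high fat mice and between 12.32 and 12.37 in low fat mice, and its part in the increases of Pdgfra, Pdgfrb, Cd34 and Clec11a was not tested.

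**Figure D4:**
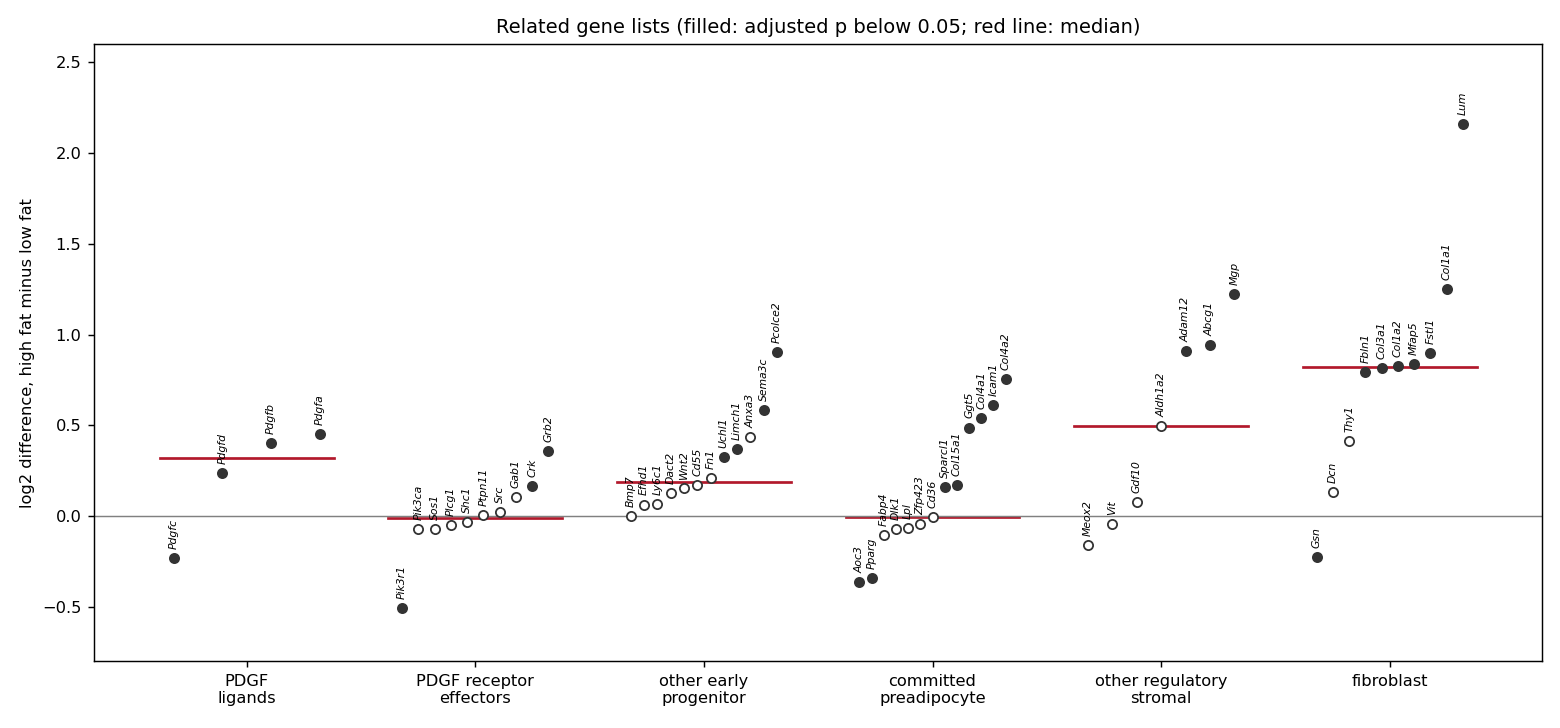
Difference in log2 expression, high fat minus low fat (y axis), for each gene of 6 related lists (x axis), with filled points for genes past an adjusted p of 0.05 and a red line at the list's median. Fibroblast genes have the highest median, 0.82, and committed preadipocyte genes lie on both sides of 0.

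The mice at the ends of the ranges were often the same. High fat mouse 5 was the highest of its group for 6 of the 9 genes, Pdgfra, Cd34, Cd248, Dpp4, Pi16 and Fmo2, and low fat mouse 4 was the lowest of its group for 5, Cd34, Cd248, Dpp4, Pi16 and Fmo2. Markers of the mesothelium, the cell layer that covers visceral fat, ran with these mice, and so did the fibroblast list. The mean of 6 such markers was 9.58 in high fat mouse 5, with the rest of that group between 8.24 and 9.15. It was 7.83 in low fat mouse 4, with the rest of that group between 8.32 and 8.89. High fat mouse 3 had the lowest mesothelial mean of its group, 8.24, with Pi16 at 11.05. The mean of the fibroblast list was 11.14 in high fat mouse 5, with the rest of that group between 10.74 and 11.03. In low fat mouse 4 the fibroblast mean was 9.91, with the rest of that group between 10.20 and 10.27. None of the 6 mesothelial markers passed limma for diet, with 0 at an unadjusted p under 0.05, and the 2 with the smallest p, Msln and Lrrn4, were at 0.70 and 0.43 with limma adjusted p of 0.245 and 0.448. The part of mesothelial cells or of fibroblasts in the values of Dpp4, Pi16, Cd34, Cd248 and Fmo2 was not tested. Without high fat mouse 5 and low fat mouse 4, Pdgfra (0.59), Pdgfrb (0.44) and Cd34 (0.22) still passed the limma test, and Clec11a (0.51) did not.

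T cell markers, which matter because Dpp4 is also a T cell surface protein, were called in 0 of 5 cases, with 0 at an unadjusted p under 0.05. Cd3e was at -0.42 and Cd4 at -0.24, with limma adjusted p of 0.305 and 0.186. The smooth muscle list, high in low fat mouse 2, had 0 of 7 members called, with 1 at an unadjusted p under 0.05, Acta2 (0.35, limma adjusted p = 0.0987). Myh11 was at -0.48, and 2 of these markers rose without low fat mouse 2. In low fat mouse 2, Pdgfra, Pdgfrb and F3 had the lowest values of the low fat group and Fmo2 the highest. In the skeletal muscle list 0 of 7 were called, none with an unadjusted p under 0.05, Mylpf being at 0.15 and Tnnc2 at 0.12. High fat mouse 1, where that list was high, had the lowest values of its group for Cd34, Cd248, Pi16 and Fmo2. Low fat mouse 4 had the highest mean of that list in its group and the lowest values of Cd34, Cd248, Dpp4, Pi16 and Fmo2. The part of skeletal muscle in these values was not tested.

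**Figure D5:**
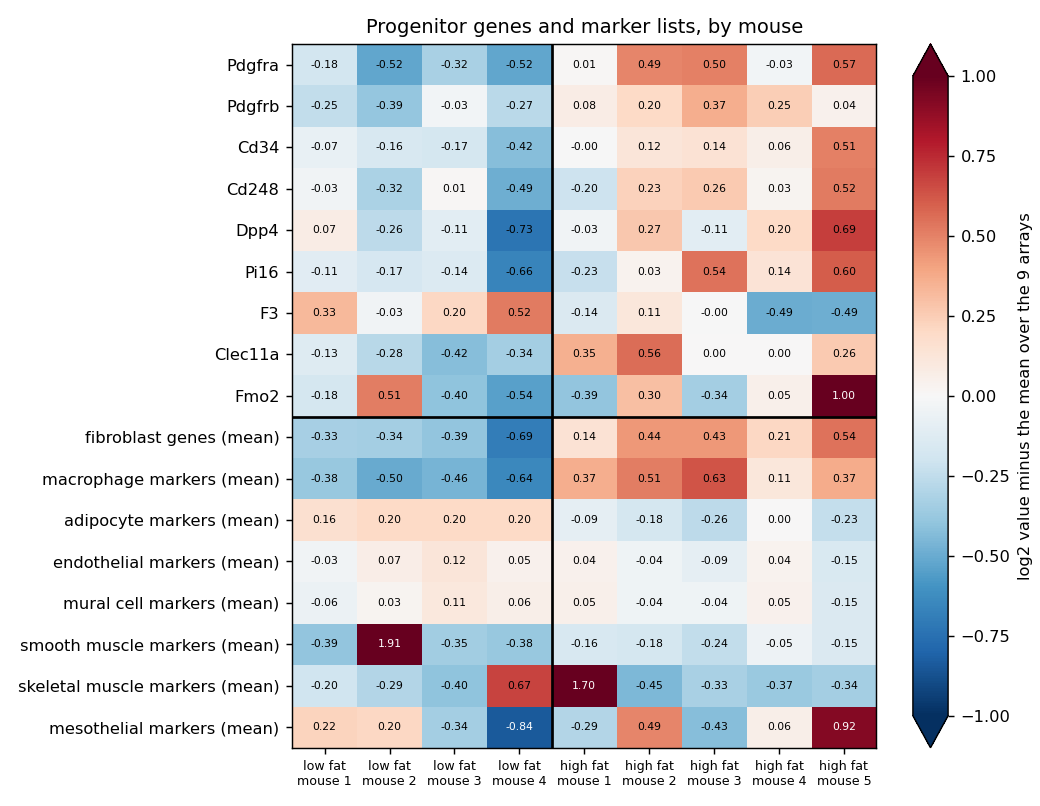
Log2 value minus the mean over the 9 arrays (colour and printed number) for the 9 measured genes and for the means of 8 gene lists (rows), by mouse (columns), with colours ending at 1 in either direction. High fat mouse 5 and low fat mouse 4 hold the highest and lowest values of Dpp4, Pi16, Cd34 and Cd248 and of the mesothelial and fibroblast lists.

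The genes with the pattern most like each member that rose were found by the root mean square difference over the 9 arrays between values centred on each gene's own mean, among 22171 genes. Bmp2k, a kinase gene, was closest to Pdgfrb at 0.02, and Fads3, a desaturase family gene, followed at 0.07. Gxylt2, a xylosyltransferase gene, and Lhfp were closest to Pdgfra at 0.10 and 0.11. Clip4 and Lgi4 were closest to Cd34, both at 0.07, and Prim2, a DNA primase subunit gene, and Serpinb8 to Clec11a at 0.09 and 0.10. All 8 rose in high fat diet, which the measure favours since it includes the diet difference.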

How the data were processed

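The deposited table holds log2 expression values per probe set, 1 array per mouse. Per the submitters' processing notes RMA, limma and R 3.5.0 were used, without a statement of which did what. For annotation, filters and batches the sources used here give nothing. Quantile steps of RMA can pull array distributions together, and no detection calls were used, so the background level is unknown. The number of arrays limits precision. The p-values rest on the spread between mice as labelled, and limma moderates that spread for each gene with information from all genes.

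Of 33793 rows, 23521 carry 1 gene symbol in the probe table, 1814 carry several and 8458 are not listed. For each symbol the probe set with the highest mean over 9 arrays was kept (22180 genes). Symbols matched the RefSeq table of GRCm38.p6 by Entrez identifier for 23328 probe sets, with 0 changed. Diet was tested with limma 3.58.1 (lmFit, eBayes) in R 4.3.3 with an intercept and diet, and Benjamini-Hochberg adjustment over all genes at 0.05. The procedure was tested on simulated data. Differences are high fat minus low fat, and folds are powers of 2 of them. Exact permutation tests ran in Python 3.11.15. The genes named are all members, all PDGF ligands, by p the leading 4 genes of each other list and the leading 2 of each marker list, and the 2 nearest patterns of each member called. Others were chosen after their values were seen. Members and lists were chosen with earlier results of these data known. Promoter sequences are from RefSeq, for 7 of the measured members. Alternatives covered normalization, centring, a filter on dim genes (lowest 25% left out), probe choice, rows tested, the variance model, weights of arrays, a block for mouse number, and mice left out.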

Additional observations from a re-analysis of the deposited data

Results flagged for a closer look

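Some values stood far from the rest of their group by Dixon's test at the 95% level, in 16 of 118 groups of 4 or 5 mice tested, and chance alone gives about 5%. All values are log2 expression. In high fat mouse 5, Cd34 was at 12.25 with the other 4 mice between 11.74 and 11.88, Kcnj8 at 7.94 with the others between 8.30 and 8.41, and Svs4 at 5.41 with the others between 5.32 and 5.33. In low fat mouse 4, Pi16 was at 9.85 with the other 3 mice between 10.34 and 10.40, Col1a1 at 9.27 with the others between 9.87 and 9.98, and C1qb at 11.38 with the others between 11.65 and 11.70. The same mouse had the lowest Dpp4 relative to Pdgfra, -0.46 against -0.03 to 0.01, and the highest F3 relative to Pdgfra, 0.26 against -0.29 to -0.25.

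In low fat mouse 2, Fmo2 relative to Pdgfra was 0.80 with the others between -0.31 and -0.22, Abcg1 was at 9.03 with the others between 9.64 and 9.68, and Myh11 at 10.35 with the others between 8.47 and 8.53. In high fat mouse 1, Mylpf was at 5.98 and Tnnc2 at 8.21, with the others between 4.89 and 5.04 and between 7.08 and 7.26. Icam1 was at 8.92 in high fat mouse 2 with the others between 8.62 and 8.70, Col4a1 at 9.72 in high fat mouse 3 with the others between 9.84 and 9.86, and Gab1 at 9.65 in high fat mouse 4 with the others between 9.46 and 9.48.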

How the results depend on the processing

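The calls of Pdgfra and Pdgfrb were kept under every alternative run, with 1 mouse left out at differences of 0.63 to 0.78 and of 0.37 to 0.49. In the same fits Cd34 ranged from 0.29 to 0.42 and lost its call in 5 of 9 cases, Cd248 from 0.28 to 0.47, Pi16 from 0.36 to 0.60, Dpp4 from 0.30 to 0.57, Fmo2 from 0.06 to 0.50 and F3 from -0.55 to -0.37. Cd34 also lost its call with quantile normalization repeated (0.34), without high fat mouse 1 and low fat mouse 2 (0.43) and without high fat mice 1 and 2 (0.44). Clec11a lost it without high fat mouse 1 and low fat mouse 2 (0.50), and without high fat mouse 5 and low fat mouse 4 (0.51), the latter chosen after the data were seen, where Fmo2 turned to -0.071. F3 passed with quantile normalization repeated (-0.49), arrays centred on their medians (-0.50), dim genes left out (-0.46), a variance trend with robust settings (-0.46), and without high fat mice 1 and 2 (-0.58), where Pi16 passed too (0.70). The number of members called was 2 without high fat mouse 1 and low fat mouse 2, and otherwise 3 to 6. The causes were not tested.

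Over all genes, 57.5% of calls were higher in high fat mice, 45.6% with quantile normalization repeated (2320 higher and 2771 lower) and 42.2% with arrays centred on their medians (2227 and 3056). Mouse numbers did not pair the arrays by the rule used: deviations of same-numbered mice correlated at 0.05 to 0.13 over genes, not all above 0.1. Those of differently numbered mice correlated at -0.16 to 0.16. With the mouse number as a replicate block 4036 genes and 4 members were called, with Pdgfra at 0.63 and F3 at -0.39. Differences from Pdgfra paired over mouse numbers, such as -1.02 for F3, had no reachable threshold, with a smallest exact permutation p of 0.125. The number of arrays limits all of these.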
